A study of Mus musculus with 72 samples.

Results

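Glucose enters muscle fibers through facilitative transporters of the SLC2 (GLUT) family, and the 6 genes described here encode 4 of these transporters, *Slc2a1*, *Slc2a3*, *Slc2a4* and *Slc2a12*, and the Rab GTPase-activating proteins *Tbc1d1* and *Tbc1d4*. They are 6 of the 55401 genes in the deposited tables. The genes were chosen by name with earlier measured values of these data in view. Which values these were is not stated in the sources used here. The comparison of KO+AAV with KO gastrocnemius at 10 weeks was taken to be among them, so for these genes it is described without a test. All other tests were run over all genes measured and the values of these 6 were then read from them. The choice may touch these tests too. How many of the 6 passed is therefore set beside the share of all genes as a description only.

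The study asked what returning the clock gene *Bmal1* to skeletal muscle does in mice that lack it everywhere, and RNA-seq of 72 libraries measured transcript levels in tissues of male mice collected at ZT1, the start of the light phase. WT mice were littermates. KO mice carried a whole-body deletion of *Bmal1* (listed as *Arntl*). KO+AAV mice were KO mice given, soon after birth, an AAV9 vector with HA-tagged *Bmal1* under the muscle-specific promoter CK6. KO+GFP mice received the same kind of vector with GFP in place of *Bmal1*, and these and their own KO controls were normalized in a table of their own. Gastrocnemius, a mostly fast-twitch calf muscle, was taken at 10 weeks from 6 WT, 6 KO and 7 KO+AAV mice, at 40 weeks from 5 mice of each group, and at 10 weeks from 3 KO+GFP and 3 KO mice. Heart, white fat, liver and lung were taken at 40 weeks from 4 KO and 4 KO+AAV mice, so all mice of these tissues, like those of the GFP experiment, lacked *Bmal1* in the genome. By the study's account, HA-tagged protein from this vector was not detected in soleus, diaphragm, heart, liver, lung or stomach. Replicates are numbered within groups without naming the animal, and *P* values therefore measure the spread between these samples.

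Reads on genes ranged from 9325122 to 41733282 in the 34 main gastrocnemius libraries, from 6754312 to 8515400 in the 6 of the GFP experiment and from 36903079 to 50755829 in the other tissues. *Arntl* at gene level was 402 to 634 normalized counts in WT and 196 to 296 in KO gastrocnemius at 10 weeks, and 169 to 281 in KO+AAV, so this count separated KO from WT but not KO+AAV from KO. At 40 weeks the library labelled KO replicate 2 had an *Arntl* count of 1039, above all 5 WT libraries (480 to 608). Among other tissues, KO heart replicate 2 held 859141 normalized counts of the hepatocyte gene *Alb*, KO heart replicate 4 held 309047 of the atrial gene *Nppa*, and KO white fat replicate 2 held 21980 of the adipocyte gene *Adipoq* against at least 85684 in the other 7. That fat library also held 748500 of the epididymis gene *Gpx5*, against 0 to 1.59 in the other 7. Values without these libraries are given beside the results they touch most, an alternative chosen after seeing the data. Defining markers of liver and lung matched the labels. Summed hepatocyte markers were at least 65350 TPM (transcript reads scaled to exon length and library total) in liver. Summed lung epithelium markers were at least 246274 TPM in lung. Lung libraries also held cardiomyocyte markers, which summed to 56.2 to 726 TPM in KO and 1142 to 3832 in KO+AAV.

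SLC2A4 (GLUT4) is the insulin- and contraction-responsive transporter of muscle and fat and is held in intracellular vesicles at rest. TBC1D1 and TBC1D4 (AS160) keep the Rab GTPases of these vesicles in their inactive form until they are phosphorylated, TBC1D4 mainly by AKT after insulin and TBC1D1 also by AMPK during contraction. SLC2A1 (GLUT1) and SLC2A3 (GLUT3) carry glucose without this control in most cells, SLC2A3 with high affinity in neurons, platelets and leukocytes, and SLC2A12 (GLUT12) is a further transporter of muscle and fat. BMAL1 with CLOCK binds E-box motifs in DNA.

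The genes lie on the GRCm38 assembly (GENCODE vM21) as follows. *Slc2a1* (ENSMUSG00000028645) spans chr4:119108711-119137983 on the plus strand, *Slc2a3* (ENSMUSG00000003153) chr6:122727809-122801640 on the minus strand, *Slc2a4* (ENSMUSG00000018566) chr11:69942539-69948188 on the minus strand and *Slc2a12* (ENSMUSG00000037490) chr10:22645011-22704285 on the plus strand. *Tbc1d1* (ENSMUSG00000029174) spans chr5:64156305-64351486 on the plus strand and *Tbc1d4* (ENSMUSG00000033083) chr14:101442360-101609191 on the minus strand. All 6 are protein coding. Of the exon bases, 105 of *Slc2a1* are shared with the antisense gene *Gm12868* and 407 of *Slc2a12*, or 9.61%, with *Tbpl1* on the opposite strand. Whether the authors counted by strand is not given in the sources used here, so reads on these bases cannot be assigned to one gene.

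The regions just upstream of the pair of RabGAP genes are shown because these related genes moved in opposite directions in the muscle without *Bmal1*. RefSeq promoter windows (GRCm38.p6) were matched for 4 of the 6 genes, *Slc2a1*, *Slc2a12*, *Tbc1d1* (with 2 start sites) and *Tbc1d4*. Printed 5′ to 3′ on the gene's strand are the 250 bases before the downstream *Tbc1d1* start site (chr5:64230107-64230356, plus strand) and before the *Tbc1d4* start site (chr14:101609192-101609441, minus strand), in lower case with each match to the GC box GGGCGG, read on either strand, in capitals.
Tbc1d1: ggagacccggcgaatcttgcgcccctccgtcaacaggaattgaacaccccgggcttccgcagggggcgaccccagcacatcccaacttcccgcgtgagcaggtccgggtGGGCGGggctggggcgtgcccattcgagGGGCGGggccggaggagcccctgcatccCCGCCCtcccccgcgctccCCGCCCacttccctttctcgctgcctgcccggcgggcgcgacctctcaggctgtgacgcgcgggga
Tbc1d4: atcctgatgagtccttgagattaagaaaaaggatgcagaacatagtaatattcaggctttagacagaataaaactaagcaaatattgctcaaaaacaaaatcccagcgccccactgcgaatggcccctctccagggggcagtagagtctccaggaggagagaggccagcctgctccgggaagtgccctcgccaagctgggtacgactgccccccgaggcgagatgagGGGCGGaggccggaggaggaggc

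The *Tbc1d1* window was 73.6% G or C and held 4 GC boxes, and the *Tbc1d4* window was 54.8% G or C and held 1. The window before the upstream *Tbc1d1* start site, which lies in an exon of the gene and is not printed, was 68.4% G or C and held 0. Over all 32851 windows of 250 bases the median was 52.4% and 32.7% held a GC box. Each window was also searched on both strands for the E-box CACGTG (held by 6.02% of all windows), the related CACGTT (3.85%) and AGGTCA, the half-site of REV-ERB and ROR receptors (14%). CACGTG and CACGTT differ in their last letter and cannot match at the same position. None of these 3 motifs was found in any of the 5 windows of the 4 genes, which says only that their letters are not in these windows.

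In WT gastrocnemius at 10 weeks *Slc2a4* had by far the highest level, and the other transporters were low. Levels between genes were compared in TPM, computed here from the recovered reads and GENCODE exon lengths. *Slc2a4* had 397 ± 25 TPM (mean ± SD, n = 6), *Tbc1d1* 28.4 ± 5.6, *Tbc1d4* 13.6 ± 2.0, *Slc2a12* 7.96 ± 0.89, *Slc2a3* 6.18 ± 2.1 and *Slc2a1* 5.13 ± 1.3. The libraries of *Slc2a4*, *Tbc1d1*, *Tbc1d4* and *Slc2a12* did not overlap, whereas those of *Slc2a3* overlapped with both *Slc2a12* and *Slc2a1*. *Slc2a4* made up 94.8% to 96.2% of the summed TPM of the 4 transporters in these libraries. In KO gastrocnemius of the same age the order changed in its lower part, where *Tbc1d4* stood at 21.3 ± 4.7 TPM and *Tbc1d1* at 3.59 ± 2.2 (n = 6), and *Slc2a3* was the lowest at 0.221 ± 0.074.

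In gastrocnemius without *Bmal1*, *Slc2a3* was nearly absent and *Tbc1d1* was low at both ages. At 10 weeks 3 of the 6 genes passed an adjusted *P* of 0.05 between WT and KO (limma over 34 libraries, Benjamini-Hochberg over 16199 genes), *Slc2a3* and *Tbc1d1* higher in WT and *Tbc1d4* lower. Of all genes tested 8.0% passed, 4.26% higher and 3.74% lower in WT. At 40 weeks 3 of the 6 passed, *Slc2a3*, *Tbc1d1* and *Slc2a12*, all higher in WT, against 23.5% of all genes, of which 12.0% were higher and 11.5% lower in WT. In bulk muscle fewer cells that carry a transcript and less transcript per cell cannot be told apart.

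*Slc2a3*, the high-affinity transporter, had the widest difference. At 10 weeks its normalized counts in WT were 155 at the lowest, 294 at the median and 421 at the highest. In KO they were 6.28, 9.46 and 13.9. The groups did not overlap, which held for 6.06% of all genes tested. The difference was 4.69 on the log2(normalized count + 1) scale (SE 0.35, adjusted *P* = 4.03e-11), and the KO mean was 3.47% of the WT mean.

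At 40 weeks the 5 WT libraries had 540, 375, 292, 439 and 252 normalized counts of *Slc2a3*, and the 5 KO libraries had 4.13, 14.3, 3.07, 10.7 and 4.14. These KO values stand for 2 to 8 reads a library. The groups again did not overlap, as was so for 13.6% of all genes. The log2 difference was 5.67 (SE 0.38, adjusted *P* = 3.24e-12), and 5.95 without KO replicate 2. Summed platelet markers moved with it at 40 weeks, with 6.46 to 18.6 TPM in WT and 1.77 to 4.93 in KO. Of the 2 such genes tested, 1 (*Pf4*) was higher in WT. Markers of leukocytes did not move with it. Neutrophil markers summed to 0.762 to 4.36 TPM in WT and 2.56 to 16.5 in KO. Macrophage markers summed to 17.4 to 74.2 TPM in WT and 15.0 to 59.5 in KO. At 10 weeks the platelet sums overlapped, 4.65 to 15.7 TPM in WT and 2.57 to 13.98 in KO, while *Slc2a3* did not. The part of any of these cells in the *Slc2a3* result was not tested.

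*Tbc1d1*, the RabGAP that AMPK phosphorylates, was the other gene with a wide difference. At 10 weeks WT libraries had from 940 to 1515 normalized counts, with a median of 1433. KO libraries had from 89.8 to 353, with a median of 126. WT stood above KO in every library, with a log2 difference of 3.14 (SE 0.26, adjusted *P* = 6.13e-10) and a KO mean at 12.4% of the WT mean.

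At 40 weeks the 5 WT libraries had 1956, 1581, 1942, 1973 and 1632 normalized counts of *Tbc1d1* and the 5 KO libraries 118, 125, 135, 150 and 182. The gap was as clear as at 10 weeks, with KO at 7.82% of the WT mean. The log2 difference was 3.68 (SE 0.29, adjusted *P* = 6.37e-11) and 3.64 without KO replicate 2.

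*Tbc1d4*, the insulin-branch RabGAP, differed in the opposite direction at 10 weeks. WT libraries had 540 to 846 normalized counts (median 678) and KO libraries 814 to 1245 (median 974). The groups overlapped in 1 library of each, WT replicate 7 at 846 and KO replicate 7 at 814. The log2 difference of WT from KO was -0.61 (SE 0.18, adjusted *P* = 0.0274). The call was lost within either sequencing site (-0.72 at ICBR with adjusted *P* = 0.0512, -0.50 at Novogene with 0.5302), without a filter on low genes (0.0538), and when 1 of 4 libraries was left out (WT replicates 2 and 6, KO replicates 2 and 5, up to 0.0874). At 40 weeks WT had 824 to 1008 and KO 770 to 1495 normalized counts, with a log2 difference of -0.30 (SE 0.19, adjusted *P* = 0.278).

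Because *Tbc1d1* and *Tbc1d4* sit in the same library, their TPM ratio does not depend on how libraries were scaled. This ratio was 1.15 to 2.72 in WT (median 2.29) and 0.0748 to 0.393 in KO (median 0.133) at 10 weeks. At 40 weeks it was 1.80 to 2.48 in WT and 0.111 to 0.169 in KO. Thus every WT library held more *Tbc1d1* than *Tbc1d4* per length and every KO library less.

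*Slc2a4*, the main transporter, moved little. At 10 weeks WT had 8199 to 9449 normalized counts (median 8831) and KO 6445 to 7768 (median 6715). The groups did not overlap, yet the log2 difference of 0.35 (SE 0.13) did not pass (adjusted *P* = 0.0878). It passed when WT and KO were fitted alone, with the same log2 difference (adjusted *P* = 0.00151). At 40 weeks WT had 8285 to 8882 and KO 7010 to 13043, and the log2 difference was -0.03 (SE 0.14, adjusted *P* = 0.901). The 13043 was KO replicate 2, and without it the difference was 0.11 (adjusted *P* = 0.622).

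*Slc2a12* was lower in KO at 40 weeks. WT libraries had 252, 256, 198, 222 and 245 normalized counts and KO libraries 135, 96.7, 149, 120 and 141. The groups did not overlap, and the log2 difference was 0.88 (SE 0.16, adjusted *P* = 0.000199), or 0.78 without KO replicate 2 (adjusted *P* = 0.00107). At 10 weeks WT had 182 to 248 and KO 148 to 184, with a log2 difference of 0.40 (SE 0.15, adjusted *P* = 0.104). That difference passed when WT and KO were fitted alone (adjusted *P* = 0.0106).

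*Slc2a1*, the widely expressed transporter, did not pass at either age. Normalized counts were 86.2 to 150 in WT and 81.4 to 122 in KO at 10 weeks, with a log2 difference of 0.13 (SE 0.28, adjusted *P* = 0.873). At 40 weeks they were 134 to 230 in WT and 78.4 to 634 in KO, with a log2 difference of 0.04 (SE 0.30, adjusted *P* = 0.950). One library set the upper end: KO replicate 2 held the 634, and without it the difference was 0.50 (adjusted *P* = 0.0948).

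**Figure D1:**
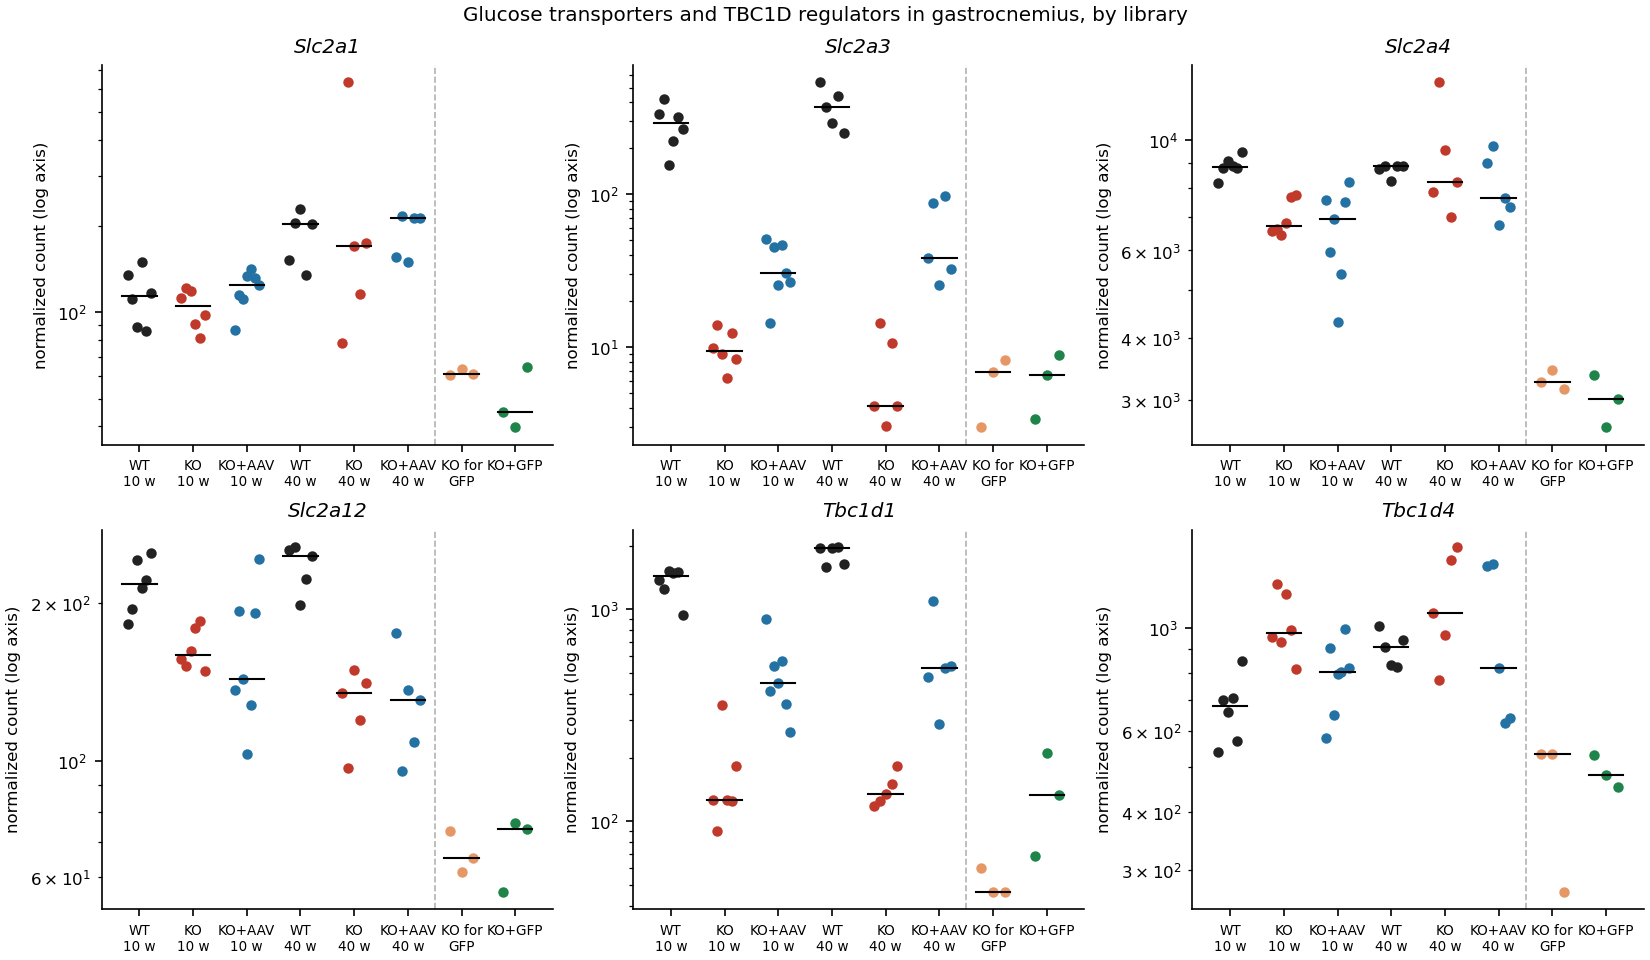
Normalized counts of the 6 genes (log axes) in each gastrocnemius library, with a line at the group median. Right of the dashed line is the GFP experiment, which was normalized apart and cannot be compared in level with the rest. *Slc2a3* and *Tbc1d1* in WT lie above all KO libraries at both ages, with KO+AAV between them in most libraries.

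In KO+AAV muscle, *Slc2a3* and *Tbc1d1* stood between KO and WT, and the other 4 genes stayed near KO or overlapped both groups. With the GFP vector, which carries no *Bmal1*, *Tbc1d1* was also higher than in KO controls (log2 difference 1.27, SE 0.31, given below). How much of the *Tbc1d1* difference goes with the vector itself was not tested. The 10-week values of KO+AAV and KO are given as a description, since that contrast was taken to be in view when the genes were chosen. *Slc2a3* had 51.4, 14.3, 45.0, 25.6, 46.8, 30.3 and 26.6 normalized counts in the 7 KO+AAV libraries, all above the highest KO library (13.9), and 0.574% of all genes had groups that did not overlap. *Tbc1d1* had 905, 414, 539, 448, 570, 359 and 264, and only the last lay below a KO library (replicate 3, at 353).

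The log2 difference between KO+AAV and KO at 10 weeks was 1.61 for *Slc2a3* (SE 0.34) and 1.62 for *Tbc1d1* (SE 0.25). Within ICBR libraries these were 1.42 and 1.78, and within Novogene libraries 1.83 and 1.41. The mean of KO+AAV was 3.44 times that of KO for *Slc2a3* and 3.0 times for *Tbc1d1*, and reached 11.9% and 37.2% of the WT mean. In the other genes KO+AAV differed from KO by 0.21 for *Slc2a1* (SE 0.27), -0.10 for *Slc2a4* (SE 0.12), -0.04 for *Slc2a12* (SE 0.15) and -0.36 for *Tbc1d4* (SE 0.17). Macrophage and platelet markers, cells that carry *Slc2a3*, were also higher in some KO+AAV libraries without a call. The 7 macrophage markers summed to 31.4 to 330 TPM in KO+AAV and 13.3 to 53.8 in KO, and the platelet markers to 7.16 to 48.5 and 2.57 to 13.98. The part of these cells in the *Slc2a3* values was not tested.

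The 40-week mice were a separate set, and there the same pair of genes was higher in KO+AAV than in KO. These were 2 of the 6, against 0.259% of all genes (0.222% higher, 0.0370% lower). The 6 were chosen with results of these data in view, so nothing particular to them as a set is read from these shares. *Slc2a3* had 38.3, 88.4, 25.5, 97.7 and 32.4 normalized counts in KO+AAV, and *Tbc1d1* had 480, 1098, 287, 529 and 538. For both genes all KO+AAV libraries lay above all 5 KO libraries, as was so for 1.08% of all genes.

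The 40-week log2 difference of KO+AAV from KO was 2.79 for *Slc2a3* (SE 0.38, adjusted *P* = 6.40e-05) and 1.92 for *Tbc1d1* (SE 0.29, adjusted *P* = 0.000316). Without KO replicate 2 they were 3.07 and 1.88. Both passed with each of the 10 libraries left out in turn, with edgeR and with DESeq2. Both were lost when the 2 groups were fitted alone (adjusted *P* = 0.186 for *Slc2a3* and 0.0686 for *Tbc1d1*). The KO+AAV means were 14.9% and 32.3% of the WT means. Summed platelet markers were 1.23 to 9.59 TPM in KO+AAV and overlapped with KO. So did neutrophil markers (0.365 to 3.48 TPM against 2.56 to 16.5 in KO) and macrophage markers (12.6 to 58.1 against 15.0 to 59.5). The part of these cells in the *Slc2a3* result was not tested.

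*Slc2a12* showed no such difference at 40 weeks. Its KO+AAV libraries had 175, 95.4, 136, 108 and 131 normalized counts, in the range of KO, and the log2 difference of KO+AAV from KO was -0.00 (SE 0.16, adjusted *P* = 0.998). WT was higher than KO+AAV by 0.88 (SE 0.16, adjusted *P* = 0.000379), with no overlap, as was so for 11.7% of all genes in that comparison. *Tbc1d4* in KO+AAV spread from 623 to 1371 across WT and KO. The ratio of *Tbc1d1* to *Tbc1d4* in KO+AAV was 0.335 to 1.62 at 10 weeks and 0.364 to 0.882 at 40 weeks, so it stayed under 1 in all but 1 of the 12 KO+AAV libraries.

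Against WT, KO+AAV muscle was still lower for *Slc2a3* and *Tbc1d1* at both ages. Comparisons with WT and with KO share the KO+AAV libraries, and their values are given side by side only. At 10 weeks 3 of the 6 genes passed, against 5.15% of all genes. WT was higher by 3.07 on the log2 scale for *Slc2a3* (SE 0.34, adjusted *P* = 3.62e-07) and by 1.52 for *Tbc1d1* (SE 0.25, adjusted *P* = 0.000216), in both cases with no overlap, as was so for 2.86% of all genes. *Slc2a4* was higher by 0.45 (SE 0.12, adjusted *P* = 0.0218), with 4319 to 8242 normalized counts in KO+AAV. That call was lost within ICBR (0.51, adjusted *P* = 0.153), within Novogene (0.38, adjusted *P* = 0.523), with the 2 groups alone (0.0567), and when 1 of 4 libraries was left out (WT replicates 3 and 4, KO+AAV replicates 4 and 5, up to 0.0682). For *Tbc1d1* the difference within ICBR was 1.32 (adjusted *P* = 0.130). *Slc2a12* was higher in WT by 0.44 (SE 0.15) and did not pass with limma (adjusted *P* = 0.0714), but passed in 3 of 24 alternatives.

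At 40 weeks 3 of the 6 genes passed between WT and KO+AAV, against 12.5% of all genes. They were *Slc2a12*, given above, *Slc2a3* with a log2 difference of 2.88 (SE 0.38, adjusted *P* = 3.55e-06) and *Tbc1d1* with 1.76 (SE 0.29, adjusted *P* = 6.73e-05). *Slc2a4*, *Slc2a1* and *Tbc1d4* differed by 0.12, -0.05 and -0.01 (SE 0.14, 0.30 and 0.19).

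**Figure D2:**
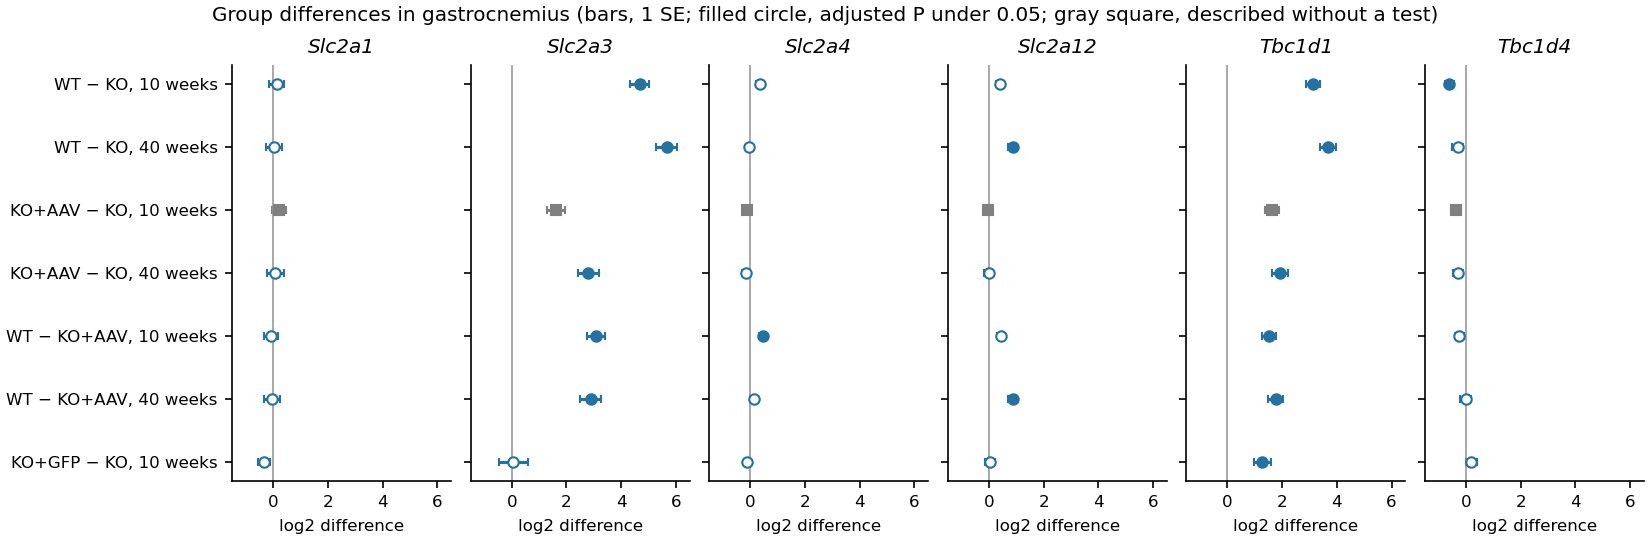
Log2 differences between gastrocnemius groups for the 6 genes, with bars of 1 SE on the log2(normalized count + 1) scale. Filled circles passed an adjusted P of 0.05, open circles did not, and gray squares mark the comparison described without a test. *Slc2a3* and *Tbc1d1* are to the right of 0 in all 6 comparisons of the main experiment. With GFP *Tbc1d1* passed, while *Slc2a3*, at 0.06, did not.

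*Slc2a3* and *Tbc1d1* followed each other across groups but little within them. Over the 34 gastrocnemius libraries their log2 values had a Pearson r of 0.93, and after the mean of each group was subtracted 0.28. *Slc2a3* and *Slc2a12* had an r of 0.54 before and -0.54 after. These are descriptions over libraries that share genotype, age and site. The genes most like *Tbc1d1* across the 34 libraries, of 11104 genes with a mean above 50 and after centring by site, were *Tdrp* (r = 0.94), *Slc2a3* (0.93) and the clock repressor *Nr1d2* (0.92). Those most like *Slc2a3* were *Tdrp* (0.94), *Sorbs2* (0.93) and *Tmem100* (0.93). For *Slc2a4*, *Slc2a12*, *Slc2a1* and *Tbc1d4* the nearest gene was *Rnf114* (0.87), *Cmss1* (0.91), *Ell* (0.80) and *Slc27a1* (0.72), respectively.

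**Figure D3:**
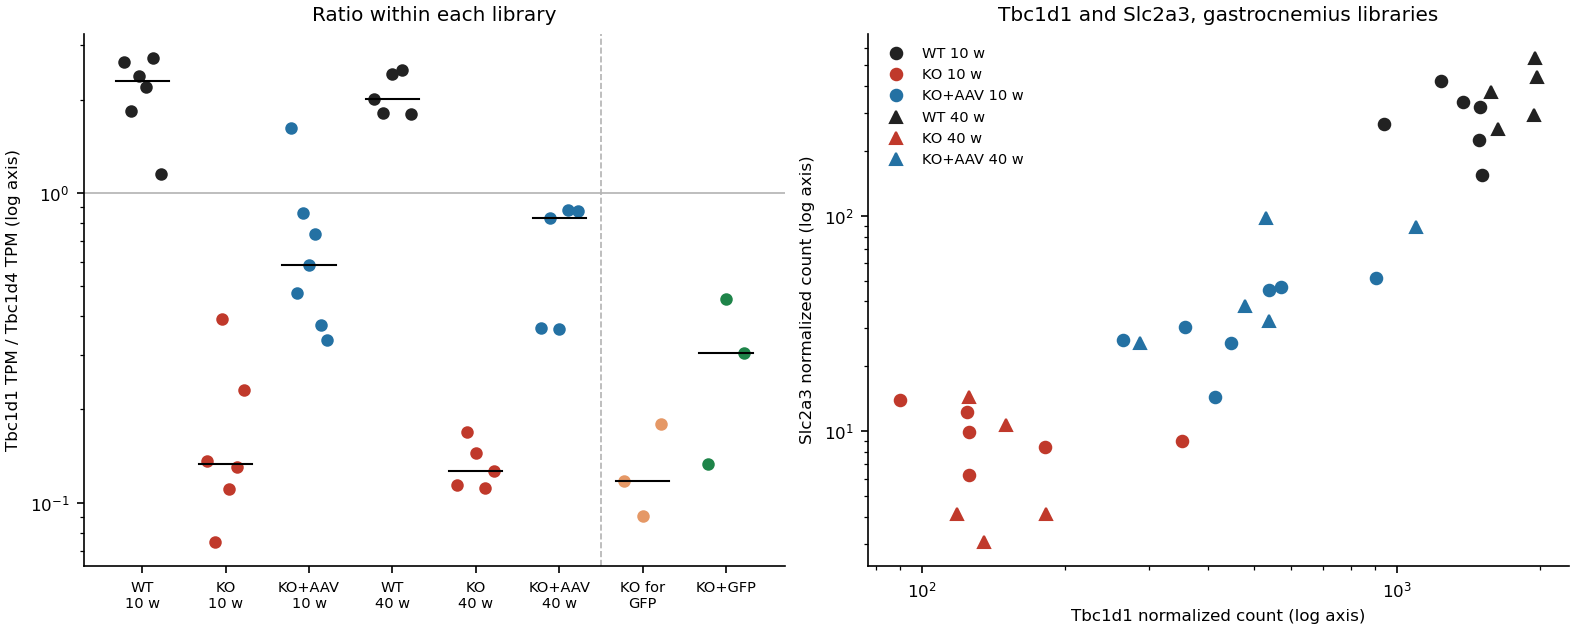
Left, TPM of *Tbc1d1* divided by TPM of *Tbc1d4* in each gastrocnemius library (log axis, line at the median). Right, *Slc2a3* against *Tbc1d1* in normalized counts (log axes), circles at 10 weeks and triangles at 40 weeks. All WT libraries have a ratio above 1 and all KO libraries one of at most 0.393, and the 3 genotypes lie along 1 band on the right.

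Age was compared within each genotype, 40 weeks against 10 weeks. No gene of the 6 passed in WT, KO or KO+AAV with limma, where 0.148%, 8.31% and 8.53% of all genes passed. Unadjusted *P* was under 0.05 for 1, 2 and 2 of the 6, edgeR and DESeq2 each called 1 in KO (*Slc2a1*), and neither called any in WT or KO+AAV. *Slc2a1* was higher at 40 weeks by 0.69 on the log2 scale in WT (SE 0.31, adjusted *P* = 0.610), by 0.78 in KO (SE 0.31, adjusted *P* = 0.110) and by 0.65 in KO+AAV (SE 0.31, adjusted *P* = 0.188). The value in KO was 0.32 without KO replicate 2. All 40-week gastrocnemius libraries came from 1 sequencing site, and the model took the site difference from the 10-week libraries, where none of the 6 genes passed a site effect (adjusted *P* of at least 0.239) while 23% of all genes did.

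Whether group differences changed with age was tested as an interaction. None of the 6 passed with limma, edgeR or DESeq2 for WT against KO (0.370% of all genes passed), KO+AAV against KO (0.00617%) or WT against KO+AAV (0.642%), and unadjusted *P* was under 0.05 for 1, 1 and 0 of the 6. The largest was *Slc2a3* in KO+AAV against KO, where the 40-week difference exceeded the 10-week one by 1.18 (SE 0.51, adjusted *P* = 0.929).

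The GFP experiment asked what the vector does without *Bmal1*. Among the 6 genes *Tbc1d1* alone passed, against 3.09% of 14477 genes. The 3 KO+GFP libraries had 68.7, 211 and 133 normalized counts of *Tbc1d1* and the 3 KO controls 60.6, 46.6 and 46.6. KO+GFP was higher in all 3, with no overlap, as was so for 23.5% of all genes. The log2 difference was 1.27 (SE 0.31, adjusted *P* = 0.0495). The call was lost with a pseudocount of 0.5 (adjusted *P* = 0.0514), with genes above a mean of 50 only (0.0588), and when KO+GFP replicate 2 or 3 or KO replicate 2 or 3 was left out (0.113 to 0.196). Without KO+GFP replicate 2 the difference was 0.90.

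*Slc2a3* gave no such difference with GFP, with 3.38, 6.61 and 8.81 normalized counts in KO+GFP and 2.98, 6.82 and 8.29 in KO (log2 difference 0.06, SE 0.53, adjusted *P* = 0.967). The remaining log2 differences were -0.34 for *Slc2a1* (SE 0.21), -0.13 for *Slc2a4* (SE 0.10), 0.03 for *Slc2a12* (SE 0.18) and 0.20 for *Tbc1d4* (SE 0.21). Cell type markers moved with the GFP groups. Of 8 slow fiber markers 6 were higher in KO+GFP, with summed levels of 1152 to 1449 TPM against 130 to 703 in KO. Of 7 macrophage markers 5 were higher (58.9 to 75.9 against 19.4 to 25.1 TPM), and of 5 Schwann cell markers 3 were lower (42.0 to 63.2 against 110 to 145 TPM). The 7 fast fiber markers summed to less in KO+GFP (85872 to 96027 against 105692 to 112428 TPM), although the 1 that passed, *Myh1*, was higher by 1.29. The 7 adipocyte markers summed to more (240 to 349 against 139 to 220 TPM), and 1 of them passed, *Lpl*, higher by 0.93. Their part in the *Tbc1d1* difference was not tested. Of 98 pathway genes tested here 2 were higher and 6 lower in KO+GFP, the latter with the AMPK subunit *Prkag3* (-1.12, SE 0.13, adjusted *P* = 0.00125) and *Txnip*, which limits glucose uptake (-1.23, SE 0.13, adjusted *P* = 0.000410).

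Slow fiber markers differed by library in the main experiment too, without a call by limma. Their summed level was 117 to 917 TPM in WT, 91.2 to 3327 in KO and 158 to 2134 in KO+AAV at 10 weeks, and 68.2 to 1288, 521 to 7185 and 185 to 1697 at 40 weeks. All 8 were lower in KO+AAV than in KO at both ages (median log2 difference -0.32 and -1.74), and none passed with limma, edgeR or DESeq2 or had an unadjusted *P* under 0.05. Between WT and KO none passed with limma or edgeR at either age (median -1.35 and -2.28), 3 had an unadjusted *P* under 0.05 at 40 weeks, and DESeq2 called 1. Their part in the differences of the 6 genes was not tested.

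Genes that work with these transporters were read from 9 lists of 106 genes in all. Between WT and KO at 10 weeks 9 of 101 tested, or 8.91%, were higher and 1, or 0.990%, lower in WT, beside 4.26% and 3.74% of all genes. The median log2 difference was 0.09 against -0.01 for all genes. At 40 weeks 20, or 19.8%, were higher and 10, or 9.90%, lower, beside 12.0% and 11.5% of all genes, with a median of 0.06 against 0.01. Without KO replicate 2, an alternative chosen after seeing the data, 19 were higher and 8 lower at 40 weeks, beside 10.3% and 9.41% of all genes. The lists were made with results of these data in view, so nothing particular to them is read from these shares. In the step after transport, hexokinase *Hk2* was higher in WT at both ages (by 0.58, SE 0.12, adjusted *P* = 0.00153 at 10 weeks and by 0.51, SE 0.13, adjusted *P* = 0.00487 at 40 weeks). Its list, glucose phosphorylation and uptake limiters, had 2 of 8 higher at 10 weeks and 3 higher and 2 lower at 40 weeks, with glycogen synthase *Gys1* lower in WT (-0.52, SE 0.12, adjusted *P* = 0.00214, and -0.40 without KO replicate 2). Without that library the list had 4 higher and 1 lower, and *Hk2* was higher by 0.59.

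Of 21 genes of GLUT4 vesicle traffic and fusion 4 (19.0%) were higher in WT at 10 weeks and 6 (28.6%) at 40 weeks, and none lower, beside the shares of all genes just given. The 40-week count was also 6 without KO replicate 2. The vesicle motor *Myo5a* was higher at both ages (1.15, SE 0.28, adjusted *P* = 0.00605, and 0.96, SE 0.30, adjusted *P* = 0.0192), and *Ralgapa2*, a subunit of the RalA GTPase-activating complex, at 10 weeks (0.58, SE 0.14, adjusted *P* = 0.00500). Of 7 Rab GTPases that the RabGAPs act on, *Rab10* was higher in WT at 10 weeks (0.39, SE 0.10, adjusted *P* = 0.00793). At 40 weeks 14.3% of them were higher and 14.3% lower. The lower one was *Rab14* (-0.29, SE 0.09, adjusted *P* = 0.0136, but -0.20 with adjusted *P* = 0.0650 without KO replicate 2). Without that library the list had 2 higher and 1 lower. Of 12 other Tbc1d RabGAPs none passed at 10 weeks with limma, edgeR or DESeq2 (1 with unadjusted *P* under 0.05). At 40 weeks 2 (16.7%) were higher and 1 (8.33%) lower in WT, beside 12.0% and 11.5% of all genes. *Tbc1d2b* was 1 of the 2 higher (0.55, SE 0.20, adjusted *P* = 0.0459, and 0.0704 without KO replicate 2). Without KO replicate 2 the list had 0 higher and 1 lower, beside 10.3% and 9.41% of all genes.

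Of all genes, 4.26% were higher and 3.74% lower in WT at 10 weeks, and 12.0% and 11.5% at 40 weeks. The counts of this paragraph are set beside these shares only. In the insulin branch 1 of 15 genes was higher in WT at 10 weeks, and 3 were lower at 40 weeks. Among the latter were the PI3-kinase subunits *Pik3r1* (-1.18, SE 0.31, adjusted *P* = 0.00607) and *Pik3ca* (-0.82, SE 0.21, adjusted *P* = 0.00481). KO replicate 2 held 2916 and 5066 normalized counts of them, against 677 to 1521 and 1217 to 2009 in the other KO libraries. Without it the differences were -0.83 (adjusted *P* = 0.0325) and -0.47 (adjusted *P* = 0.00646), and the branch had 1 higher and 2 lower. In the AMPK and contraction branch 1 of 15 was higher and 1 lower at 10 weeks, the latter the kinase subunit *Camk2b* (-0.50, SE 0.12, adjusted *P* = 0.00813). At 40 weeks 5 were higher and 1 lower. Without KO replicate 2 the branch had 3 higher and 1 lower, beside 10.3% and 9.41% of all genes. Of 12 regulators of *Slc2a4* transcription 3 were higher and 1 lower at 40 weeks, the lower being *Foxo1* (-1.37, SE 0.36, adjusted *P* = 0.00560). KO replicate 2 held 3331 normalized counts of *Foxo1* against 399 to 792 in the other KO libraries. Without this library the difference was -0.83 (adjusted *P* = 0.0190), and the list had 3 higher and 2 lower. Of 4 other transporters of the family none passed at either age with limma, edgeR or DESeq2 (0 and 1 with unadjusted *P* under 0.05). Of 7 14-3-3 proteins, which bind the phosphorylated RabGAPs, 1 was lower at 40 weeks, and 0 without KO replicate 2.

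None of the 101 pathway genes passed between KO+AAV and KO at 10 or 40 weeks with limma, edgeR or DESeq2, where limma called 0.204% and 0.259% of all genes. Unadjusted *P* was under 0.05 for 9 and 13 of them, and the medians were 0.03 and 0.07, against 0.01 and 0.02 for all genes.

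In the other tissues the 6 genes had tissue-specific levels and no called difference between KO+AAV and KO. The share of all genes that passed was 0% in heart, fat and liver and 0.0237% in lung. With limma, edgeR and DESeq2 none of the 6 passed in any of the 4 tissues, and unadjusted *P* was under 0.05 for 2 in lung and none elsewhere. Over all genes, unadjusted *P* was under 0.05 for 232 in heart, 220 in fat and 553 in liver, where edgeR called 0 and DESeq2 called 0, 1 and 8. In lung it was under 0.05 for 2517, and limma called 5, edgeR 4 and DESeq2 628. Without KO+AAV lung replicate 2 limma called 257. Of the pathway genes none of 103 in heart, 104 in fat, 100 in liver and 104 in lung passed with limma, with an unadjusted *P* under 0.05 for 2, 2, 3 and 14. For these genes edgeR called 0 in each tissue and DESeq2 called 4 in lung and 0 elsewhere.

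*Slc2a4* was highest in muscle, heart and fat and lowest in liver. In KO at 40 weeks it had 299 to 509 TPM in gastrocnemius, 87.8 to 213 in heart, 44.3 to 341 in white fat, 1.18 to 11.9 in lung and 0.570 to 1.62 in liver. Fat overlapped with both muscle and heart, while gastrocnemius and heart did not overlap. Without the libraries that stand apart (gastrocnemius 2, heart 2 and 4, fat 2) it was 299 to 436 TPM in gastrocnemius, 227 to 341 in fat and 194 to 213 in heart, and fat and heart did not overlap. *Slc2a3* had another order, with 8.999 to 10.6 TPM in lung and 7.93 to 23.6 in fat, against 0.218 to 0.728 in heart, 0.0673 to 0.269 in gastrocnemius and 0.0746 to 0.150 in liver. The last 3 overlapped with a neighbor in that order, and so did lung and fat. Without the same libraries heart had 0.358 to 0.389 TPM and no longer overlapped with gastrocnemius (0.0673 to 0.219), and fat had 7.93 to 10.9. In WT muscle at 40 weeks *Slc2a3* stood at 5.31 to 11.2 TPM. All 40-week gastrocnemius libraries were sequenced at Novogene and all libraries of the other tissues at ICBR. Between gastrocnemius and the other tissues, tissue and site therefore cannot be told apart in these levels.

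*Slc2a12* was highest in lung, at 10.6 to 17.5 TPM in KO with no overlap with fat (2.51 to 9.84, and 5.59 to 9.84 without replicate 2), and lowest in liver, at 0.0425 to 0.0960. *Slc2a1* was also highest in lung, at 23.9 to 33.8 TPM, and overlapped there with fat (11.8 to 29.3) and with 1 gastrocnemius library, KO replicate 2 (24.6, against 3.17 to 7.72 in the others). *Tbc1d4* was highest in fat (16.1 to 47.6 TPM), heart (12.5 to 48.6) and gastrocnemius (13.6 to 28.1), which overlapped, and lowest in liver (0.851 to 1.63). Without the libraries that stand apart it was 31.8 to 47.6 TPM in fat, above heart (23.7 to 27.2) and gastrocnemius (19.9 to 28.1). *Tbc1d1* was 10.3 to 12.1 TPM in KO lung and 2.27 to 3.55 in KO gastrocnemius. The *Tbc1d1* to *Tbc1d4* ratio had a median of 0.951 in KO lung.

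**Figure D4:**
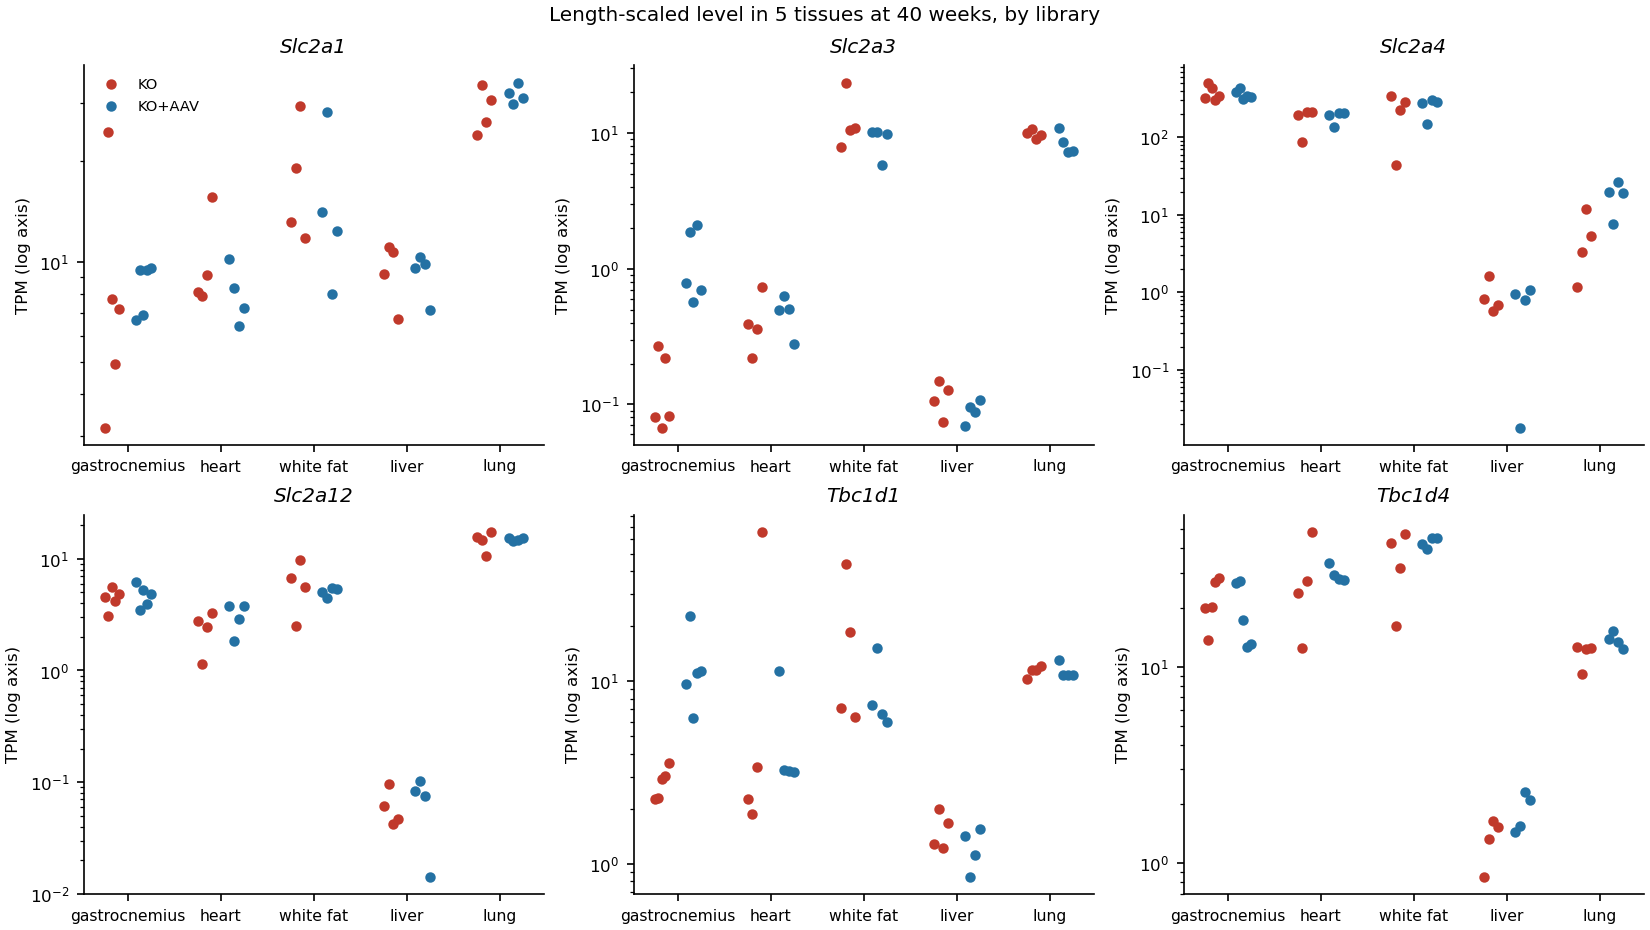
TPM of the 6 genes (log axes) in each KO and KO+AAV library of 5 tissues at 40 weeks. *Slc2a4* is highest in gastrocnemius, heart and white fat, *Slc2a3* in white fat and lung, and KO and KO+AAV differ for *Slc2a3* and *Tbc1d1* in gastrocnemius.

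*Tbc1d1* in heart varied by library more than by group. KO libraries had 329, 272, 456 and 6596 normalized counts and KO+AAV libraries 1332, 418, 444 and 443. The 2 high libraries, KO replicate 4 and KO+AAV replicate 1, were also those with the most *Nppa*, 309047 and 35104 normalized counts against 263 to 4829 in the other 6. The log2 difference of KO+AAV from KO was -0.33 (SE 0.98, adjusted *P* = 0.936), and 0.57 without KO replicates 2 and 4 (adjusted *P* = 0.998). That fit kept KO+AAV replicate 1, the other *Nppa*-rich library, so the change of sign is not read as a group difference. Without KO replicates 2 and 4 *Slc2a4* differed by -0.25 (0.14 with them), and none of the 6 genes passed. The part of *Nppa*-rich tissue in these values was not tested.

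*Slc2a4* in lung had the largest log2 difference of the 6 genes outside muscle. KO libraries had 71.4, 205, 703 and 317 normalized counts and KO+AAV libraries 1125, 468, 1628 and 1243. The groups overlapped in 1 library each, KO replicate 3 and KO+AAV replicate 2, and the log2 difference was 2.08 (SE 0.64, adjusted *P* = 0.246). Cardiomyocyte markers were also higher in KO+AAV lung but did not follow *Slc2a4* in every library. Their summed level was 56.2 to 726 TPM in KO and 1142 to 3832 in KO+AAV lung, and *Myh6* was 1918 to 19027 normalized counts in KO and 30771 to 100517 in KO+AAV. KO replicate 3 had more *Slc2a4* than KO replicate 4 (703 against 317) with less *Myh6* (13651 against 19027). It also had more *Slc2a4* than KO+AAV replicate 2 (468), which held 30771 of *Myh6*. Adipocyte markers summed to 93.9 to 734 and 202 to 1053 TPM. Of the adipocyte gene *Adipoq*, KO replicate 3 held 1844 normalized counts, KO replicate 4 held 72.0 and KO+AAV replicate 2 held 130. The part of cardiomyocytes and adipocytes in the *Slc2a4* difference was not tested. *Tbc1d4* in lung was higher in all 4 KO+AAV libraries (1735 to 2080) than in KO (1251 to 1689), as was so for 6.77% of all genes in one direction or the other, with a log2 difference of 0.27 (SE 0.11, adjusted *P* = 0.373).

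**Figure D5:**
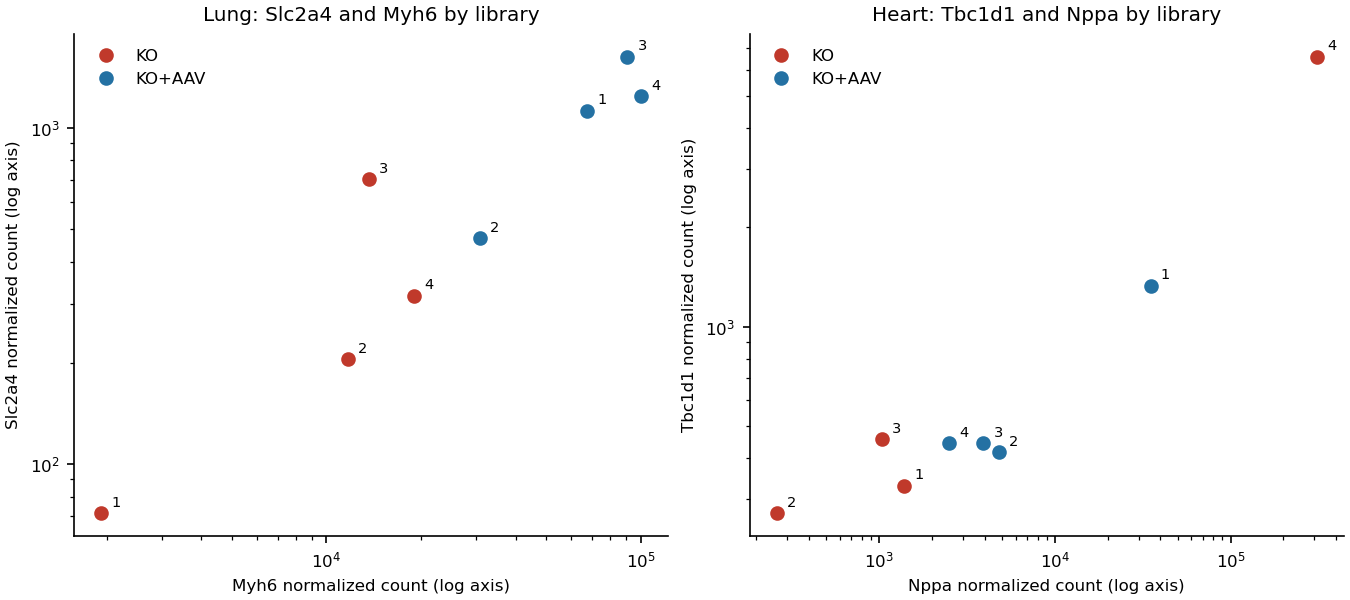
Left, *Slc2a4* against the cardiomyocyte gene *Myh6* in lung, and right, *Tbc1d1* against *Nppa* in heart, in normalized counts per library (log axes, replicate numbers beside the points). *Slc2a4* is highest in lung libraries with at least 67485 *Myh6* counts, and *Tbc1d1* in the 2 heart libraries richest in *Nppa*.

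In white fat, KO replicate 2 stood apart for most of the genes. It had 2617 normalized counts of *Slc2a3* against 851 to 1174 in the other KO libraries, and 4982 of *Tbc1d1* against 702 to 1736. It had 2362 of *Slc2a4* against 9925 to 17571, and 1897 of *Tbc1d4* against 3061 to 5444. The log2 differences of KO+AAV from KO were -0.46 for *Slc2a3*, -0.76 for *Tbc1d1*, 0.47 for *Slc2a4* and 0.44 for *Tbc1d4* (SE 0.35, 0.60, 0.65 and 0.33), each with an adjusted *P* of 0.907. Without this library they were -0.11, -0.18, -0.16 and 0.14. In liver *Slc2a4* rested on 1 to 83 reads a library, and *Slc2a12*, with 1 to 7, was under the filter on low values and was not tested. The log2 difference was largest for *Slc2a4* at -1.05 (SE 0.98, adjusted *P* = 0.997), and 1 KO+AAV library with 1.02 normalized counts stood apart from 43.4 to 59.8 in the other 3. Without that library the difference was 0.12.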

How the data were processed

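RNA-seq libraries of mouse gastrocnemius, heart, white fat, liver and lung were used (72 in all). The authors aligned reads with HISAT2 to GRCm38/mm10, counted them per gene with HTSeq and normalized them with DESeq2. The deposited signal is a normalized count, the number of reads on a gene divided by 1 DESeq2 size factor per library. Tool versions, the annotation release and the strand setting are not given in the sources used here. The GFP experiment was normalized in its own table, and the tables were tested separately.

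Whole reads were recovered by dividing each column by its step: 100.0% of values came out whole within 0.01 of a read. No column of sample values was unmatched (0), and no 2 libraries were identical. TPM was computed from these reads and GENCODE vM21 exon lengths, with symbols for 55141 of 55401 genes. The main test was limma 3.58.1 (R 4.3.3) on log2(normalized count + 1) over genes with a mean above 5, with an intensity trend and Benjamini-Hochberg adjustment (threshold 0.05). The 34 main gastrocnemius libraries shared 1 model with a term for sequencing site (ICBR or Novogene), and each other experiment had its own. Because these values are not counts as deposited, edgeR 4.0.16 and DESeq2 1.42.0 on the recovered reads were alternatives, as were a pseudocount of 0.5, no filter, a mean above 50, size factors computed again, no site term, each site alone, the 2 groups alone, a replicate block and leaving out each library. The scripts were tested on simulated data. Figures were drawn with Python 3.11.15 and matplotlib 3.10.9.

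The 6 genes and all lists were chosen with earlier results of these data known. From the pathway lists, genes were named that passed without overlap between groups, at most 3 per direction and list by *P*, and for each of the 6 genes the 3 most correlated genes over the 34 libraries. One gene of the pathway lists is not reported here. Reads on genes per library are in the opening of the report, and low genes rest on few reads, given there. Numbers that samples share across groups were not taken to pair them in the main test. Correlations of deviations from group means ran from -0.38 to 0.58, and in no comparison were all above 0.1. With few pairs in each comparison, pairing is not excluded.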

Additional observations from a re-analysis of the deposited data

Results flagged for a closer look

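Each group of 4 to 7 libraries was searched, gene by gene, for a library whose gap to its nearest neighbor took up most of the group's range (Dixon's test at the 95% level). Of 84 groups of values 4 were marked, and chance marks about 1 in 20 groups. In WT gastrocnemius at 40 weeks replicate 3 had 8285 normalized counts of *Slc2a4*, below 8749 to 8882 in the other 4. In KO+AAV liver replicate 2 had 1.02 normalized counts of *Slc2a4*, which is 1 read, against 43.4 to 59.8 in the other 3. *Tbc1d1* was marked in both heart groups. KO heart replicate 4 had 6596 normalized counts against 272 to 456, and KO+AAV heart replicate 1 had 1332 against 418 to 444.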

How the results depend on the processing

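Every tested value of the 6 genes was recomputed under each alternative, 1596 in all. Of these 1562 stayed on their side of the threshold, 24 lost a call, 10 gained one and 0 changed sign with a call. Among the 1562, 1486 kept their direction and 76 changed sign where neither value was called. The number of the 6 genes called stayed within 1.5 times its main value except as follows. With the 2 groups alone it was 5 for WT against KO at 10 weeks (main 3) and 0 for KO+AAV against KO at 40 weeks (main 2). For WT against KO+AAV at 10 weeks ICBR alone gave 1 (main 3). For KO+AAV against KO at 10 weeks, described without a test, the log2 difference ran from 1.42 to 1.83 for *Slc2a3* and from 1.41 to 1.86 for *Tbc1d1*, and that of *Slc2a1* was 0.56 within Novogene and -0.0895 within ICBR against 0.21. With a replicate block the number was 1 for KO+AAV against KO at 40 weeks (main 2), where *Tbc1d1* had an adjusted *P* of 0.0603. For age in KO edgeR and DESeq2 gave 1 (main 0), and leaving out 1 library gave 0 to 1 in KO and in KO+AAV, in each case 1 without replicate 1 at 40 weeks. For GFP (main 1) a pseudocount of 0.5 and a mean above 50 gave 0, and leaving out 1 library 0 to 1. Apart from alternatives with fewer samples or more genes tested, the cause was not tested. The leave-one-out fits of 10-week libraries, the heart fit without 2 libraries, the lists without KO replicate 2 and the tissue levels without 4 libraries were chosen after seeing the data. In no comparison were all correlations by replicate number above 0.1, but so few pairs cannot exclude pairing. Whether a call lost under the block reflects a weaker effect was not tested. Depth limits *Slc2a3* in muscle without *Bmal1*, which rests on 2 to 37 reads a library, and *Slc2a12* and *Slc2a4* in liver.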
